A study of Mus musculus with 4 samples.

Results

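The transcripts of Kit and of the alpha and beta chains through which mast cells receive interleukin-3 (IL-3), granulocyte-macrophage colony-stimulating factor (GM-CSF) and interleukin-4 (IL-4) were examined in activated mast cells with and without the phosphatase Pac1. The members were the probe sets whose only gene symbol in the platform annotation was 1 of 8 receptor genes. They covered 6 of the 8 genes, out of 12393 genes named by such probe sets, and came to 10 of the 22626 probe sets that are not controls: Kit, Il3ra, Csf2ra, Csf2rb, Csf2rb2 and Il4ra. Il1rl1 and Il2rg were not analysed here.

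The cells were bone marrow-derived mast cells of wild-type (Pac1+/+) or Pac1-/- mice aged 8 to 12 weeks, and Pac1-/- cells lack the dual-specificity MAP kinase phosphatase that Dusp2 encodes. The labels give no strain. Both genotypes were grown for 4 to 6 weeks with 5 ng/ml IL-3, were loaded with 100 ng/ml IgE against dinitrophenyl for 18 h and then received antigen, 20 ng/ml DNP-HSA, during 2 h, so no unstimulated cells are among the samples. Per the labels' protocols over 98% of the cells stained for Kit and the IgE receptor FceRI, and each genotype had 2 independent cultures, numbered replicates 1 and 2, with 1 array each. Precision is limited by having only 4 arrays.

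Kit is a receptor tyrosine kinase that dimerises on binding stem cell factor and is required for the survival of mast cells in tissues. The IL-3 and GM-CSF receptors each pair a ligand-specific alpha chain, Il3ra or Csf2ra, with a beta chain that recruits the kinase Jak2 and activates Stat5. The mouse has a pair of closely related beta chain genes that neighbour each other, Csf2rb, whose product serves the IL-3, IL-5 and GM-CSF receptors, and Csf2rb2, whose product serves the IL-3 receptor. The IL-4 receptor alpha chain Il4ra activates Stat6.

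Array quality is given first, because several receptor values and some 5' control signals stood out on the same single arrays. A link between them was not tested. All 4 arrays read the 3' control probe set of beta-actin, with deposited intensities from 2426 to 4385, but the 5' one read 2768 on wild-type replicate 2 and between 14.5 and 44.3 on the other arrays. The 5' control probe set of GAPDH read 4293, 4726 and 4446 on wild-type replicates 1 and 2 and Pac1-/- replicate 1, and 17.7 on Pac1-/- replicate 2. Wild-type replicate 2 was therefore the only array with 5' signal above 100 from both control genes, and Pac1-/- replicate 2 the only array with such signal from neither. The 5' control probe set of the transferrin receptor went another way, with 117.5 and 129.5 on the replicate 1 arrays of wild-type and Pac1-/- cells, 43.2 on wild-type replicate 2 and 3.9 on Pac1-/- replicate 2, so no array read above 100 at the 5' end of all 3 control genes. Replicate numbers separated the arrays more than genotypes did: of all variation (sum of squares, tested probe sets), the numbers held 71.9% and the genotypes 17.9%. The Y-linked gene Eif2s3y read 219 in wild-type and 275 in Pac1-/- replicate 1, but 0.95 and 2.1 in replicate 2. Dusp2 itself differed by -0.44 ± 0.51 log2 units (SE), Pac1-/- minus wild-type, with a limma adjusted p of 0.888; where its probes lie relative to the deletion is unknown here, so the labels cannot be checked by it.

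**Figure D1:**
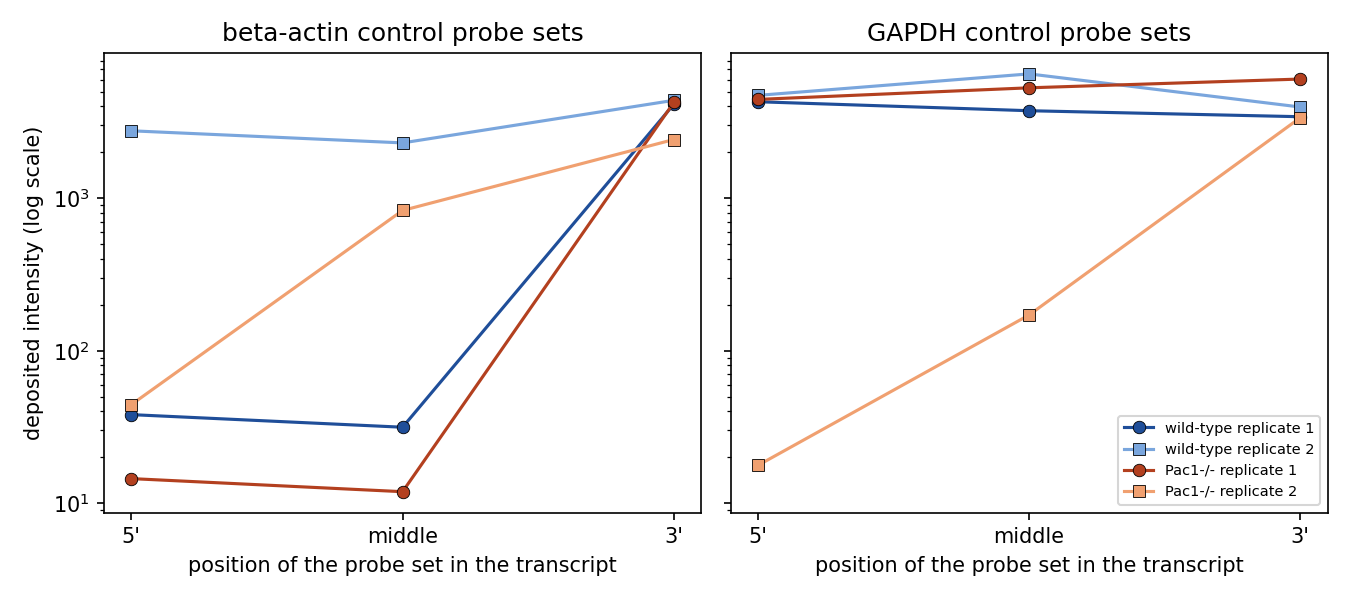
Deposited intensity (log axis) of the 5', middle and 3' control probe sets of beta-actin (left) and GAPDH (right), 1 line per array. For beta-actin, wild-type replicate 2 keeps 2768 at the 5' end, where the other 3 arrays read 14.5 to 44.3; for GAPDH, Pac1-/- replicate 2 alone falls to 17.7.

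The cells carried mast cell transcripts on every array. Of 10 mast cell markers, Kit 1452514_a_at among them, 8 read above 100 on all 4 arrays. The summed intensity of the 10 was 51461 and 44873 in wild-type and 54305 and 42291 in Pac1-/- cells. The sums hide single markers that varied widely. Ms4a2 read 142.6 and 3261 in wild-type and 41.9 and 1502 in Pac1-/- cells. Tpsb2 read 5838 and 7259, then 6588 and 476. Of 39 markers of other cells on the array, 15 separated the replicate numbers with values under 16 set to 16, 11 with replicate 2 higher and 4 with it lower. Of the 10 mast cell markers 5 did, 1 with replicate 2 higher and 4 with it lower. Among all tested genes, 40.6% did. The macrophage marker Cd68, a lysosomal glycoprotein that other myeloid cells also express, read 7512 and 5638 in replicate 1 against 118 and 121 in replicate 2. The other 6 macrophage markers on the array, Adgre1 and Csf1r among them, read 250.5 or less on each array. The stromal marker Sparc read 684.5 and 370 in replicate 1 against 3.7 and 3.75 in replicate 2. The other 5 of the 6 stromal markers read 69.8 or less on each array, and of these only Col3a1 separated the numbers, with replicate 2 higher. The neutrophil marker S100a9 ran opposite to Sparc, at 7.85 and 10.15 in replicate 1 against 57.7 and 107 in replicate 2, as did S100a8 and Ngp. These were 3 of 7 neutrophil markers on the array. The others, Elane, Mpo, Ltf and Camp, did not separate the numbers, and no neutrophil marker read above 124.1. In such bulk samples, fewer cells of a type and less RNA per cell cannot be told apart.

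Across the receptor genes, no difference between Pac1-/- and wild-type cells passed the test. The intensities below are quantile normalised over the 4 arrays, in arbitrary units, and log2 differences were taken after values under 16 were set to 16. Of the 10 receptor probe sets, 6 had a mean intensity of at least 100 and were tested among 7770 probe sets, and 4 were too dim. Of the 6, 0 passed limma's Benjamini-Hochberg adjusted p of 0.05 and 0 passed the unadjusted one, against 0% and 3.38% of all tested probe sets. The adjusted p of the 6 lay between 0.866 and 0.879. Between the genotypes, 2 of the 6 were higher and 4 lower in Pac1-/- cells. Their median log2 difference was -1.03, against 0.06 for all probe sets tested, and it came to 0.41 within replicate 1 and to -2.55 within replicate 2. In 4 of the 6 the genotypes did not overlap, against 37.7% of all tested probe sets: 2 had both Pac1-/- arrays above (24.3% of all) and 2 had both below (13.4%). The latter, Kit 1415900_a_at and Il4ra 1423996_a_at, reached the minimum through wild-type replicate 2 alone, so their place among the tested probe sets is not independent of that array. The same holds for the medians of the 6 and for the counts of lower probe sets, which include them. None of the 6 separated the replicate numbers, which 41.4% of tested probe sets did; with each array centred on its median, Kit 1415900_a_at did.

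**Figure D2:**
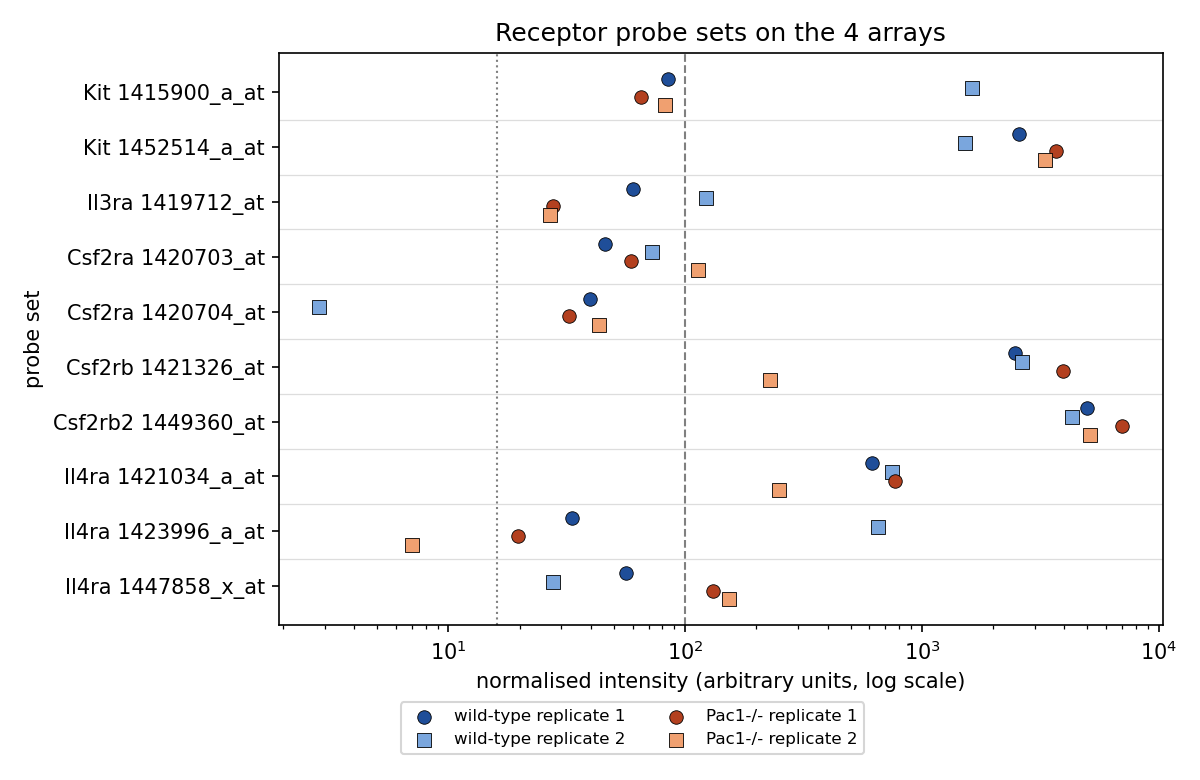
Normalised intensity (log axis) of the 10 receptor probe sets on the 4 arrays; the dashed line marks 100, the minimum for the mean of a tested probe set, and the dotted line the floor of 16. 1 probe set of Kit and 1 of Il4ra are high on wild-type replicate 2 alone, at 1624 and 655, and the Csf2rb probe set is low on Pac1-/- replicate 2 alone, at 227.5.

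Kit, the stem cell factor receptor, was read by 2 probe sets that went opposite ways. Probe set 1452514_a_at read 2580.3 and 1521 on wild-type replicates 1 and 2 and 3672 and 3296 on Pac1-/- replicates 1 and 2. Both Pac1-/- arrays were above both wild-type arrays, and wild-type replicate 2 was the lowest. The mean log2 intensity was 10.95 ± 0.54 in wild-type and 11.76 ± 0.11 in Pac1-/- cells (SD, n = 2). The difference, Pac1-/- minus wild-type, was 0.81 ± 0.44 log2 units (SE), or 1.76-fold, with a 95% confidence interval of -0.46 to 2.09 and a limma adjusted p of 0.866. It came to 0.51 within replicate 1 and 1.12 within replicate 2.

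The other Kit probe set, 1415900_a_at, read 84.8 and 1624 in wild-type cells, and 65.3 and 82.0 in Pac1-/- cells. Wild-type replicate 2 was 19.1-fold above the highest of the others, and the other 3 arrays all lay below 100. The log2 difference was -2.34 ± 1.61 (SE; 95% confidence interval from -6.94 to 2.26; limma adjusted p = 0.866), with a wild-type SD of 3.01. It was -0.21 when wild-type replicate 2 was omitted and -4.47 when wild-type replicate 1 was, with limma adjusted p of 0.99 and 0.922 (unadjusted 0.733 and 0.0057). The same array was also the one with 5' beta-actin signal, and the part of that in the Kit values was not tested. The difference in direction between the probe sets is not particular to Kit: in 49.2% of the 1468 genes with at least 2 tested probe sets, the 2 brightest had opposite signs. The suffix _a_at marks probe sets that match several transcripts of 1 gene, and where these probes lie along the Kit transcript is unknown here.

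The beta chains, which carry the IL-3 and GM-CSF signal into the cell, were bright. Csf2rb2 read 4978 and 4297 in wild-type cells, and 7032 and 5148 in Pac1-/- cells. The genotypes did not overlap, and the 4 arrays spanned 1.64-fold, the narrowest range of the 10 receptor probe sets. The difference was 0.38 ± 0.39 log2 units (SE), with a 95% confidence interval of -0.73 to 1.49 and a limma adjusted p of 0.878. It came to 0.50 within replicate 1 and 0.26 within replicate 2.

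Csf2rb, the common beta chain, read 2464 and 2634 on the wild-type arrays, 3938 on Pac1-/- replicate 1 and 227.5 on Pac1-/- replicate 2. The genotypes overlapped, because 1 Pac1-/- array was the highest of the 4 and the other the lowest. Pac1-/- replicate 2 was 10.8-fold below the lowest of the other arrays, a gap of 4-fold or more that 3.56% of tested probe sets shared (a size chosen after the values were seen). The log2 difference was -1.43 ± 1.55 (SE; 95% confidence interval from -5.87 to 3.01; limma adjusted p = 0.879). It came to 0.68 within replicate 1 and -3.53 within replicate 2, and without Pac1-/- replicate 2 it turned to 0.63. On that array 5' GAPDH signal was 17.7 while Csf2rb2 stayed at 5148, and the part of the former in the Csf2rb value was not tested. A further probe set is annotated to both beta chain genes and was left out. Since the beta chain genes are closely related in sequence, their probe sets may share signal.

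The 2 genes whose bright probe sets lay higher on both Pac1-/- arrays, Kit and Csf2rb2, are shown with the 250 bases before their annotated start (RefSeq, GRCm38.p6; Kit at chr5:75574737-75574986, plus strand; Csf2rb2 at chr15:78305722-78305971, minus strand), 5' to 3' along the gene. Capitals mark matches on either strand to letters known to be bound by factors of mast cells and their precursors: TGATAA and, also for GATA factors, the same with A as its first base, GAGGAA (ETS factors such as PU.1), TTCNNNGAA (STAT factors) and TGACTCA (AP-1).
Kit: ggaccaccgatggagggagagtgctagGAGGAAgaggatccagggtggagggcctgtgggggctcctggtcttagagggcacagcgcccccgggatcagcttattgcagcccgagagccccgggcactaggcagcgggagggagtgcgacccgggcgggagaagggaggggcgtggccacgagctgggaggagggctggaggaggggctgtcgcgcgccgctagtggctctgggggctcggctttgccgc
Csf2rb2: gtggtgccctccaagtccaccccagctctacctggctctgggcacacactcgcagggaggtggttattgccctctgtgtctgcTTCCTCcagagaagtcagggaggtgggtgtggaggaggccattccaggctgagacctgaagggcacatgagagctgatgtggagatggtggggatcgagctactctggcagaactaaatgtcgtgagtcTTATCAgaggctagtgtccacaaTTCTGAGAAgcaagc
Kit held 1 match to GAGGAA, 223 bases before its start. Csf2rb2 held 1 match each to TTCNNNGAA at 15 bases, TGATAA at 38 bases and GAGGAA at 167 bases before its start, counted from the first base of the match. Over 27025 promoters of the same length, the GATA letters occurred in 17%, GAGGAA in 23.1%, TTCNNNGAA in 7.18% and TGACTCA in 4.43%. Of the other receptor promoters in the table, Csf2ra held 2 adjoining matches to GAGGAA, at 14 and 8 bases, and those of Il3ra and Il4ra held none of the 4. The matches describe the sequence only.

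The alpha chains, which give the IL-3 and GM-CSF receptors their ligand specificity, were dim. None of their 3 probe sets reached a mean of 100, so they were not tested and the sizes of their differences are approximate. Il3ra read 60.3 and 122 in wild-type cells, and 27.7 and 26.8 in Pac1-/- cells. Both wild-type arrays were above both Pac1-/- arrays, a log2 difference of -1.66, and wild-type replicate 2 was the only array above 100. Csf2ra probe set 1420703_at read 45.9 and 72.5 in wild-type and 58.8 and 113 in Pac1-/- cells, and was higher on both replicate 2 arrays than on both replicate 1 arrays. Its other probe set, 1420704_at, read 39.7 and 2.85 in wild-type and 32.5 and 43.3 in Pac1-/- cells. In both Csf2ra probe sets the genotypes overlapped.

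Il4ra, the IL-4 receptor alpha chain, had 3 probe sets, each with a different pattern. Probe set 1421034_a_at read 612 and 745 on the wild-type arrays, 766 on Pac1-/- replicate 1 and 250 on Pac1-/- replicate 2, so that as for Csf2rb the Pac1-/- arrays were the highest and the lowest. Its log2 difference was -0.63 ± 0.69 (SE; limma adjusted p = 0.879), or 0.32 within replicate 1 and -1.58 within replicate 2. The direction turned without Pac1-/- replicate 2 (0.18) and with each array centred on its median (0.0069). With that centring the median of all tested probe sets was 0.69, so this value lay below it. Differences within the replicate numbers had opposite signs for this probe set and for Csf2rb, and in 37.1% of all tested probe sets.

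Probe set 1423996_a_at of Il4ra read 33.4 and 655 in wild-type cells, and 19.7 and 7.0 in Pac1-/- cells. As for Kit 1415900_a_at, wild-type replicate 2 was far above the rest, here by 19.6-fold over the next array, and the other 3 were below 100. A lead of at least 4-fold for that array, a size chosen after the values were seen, occurred in 1.54% of tested probe sets. The log2 difference of -3.06 ± 1.62 (SE; limma adjusted p = 0.866) depends on the floor of 16, below which Pac1-/- replicate 2 lay, and it was -0.91 when wild-type replicate 2 was omitted and -5.21 when wild-type replicate 1 was, with limma adjusted p of 0.99 and 0.922 (unadjusted 0.208 and 0.0037). The third probe set, 1447858_x_at, of a type that may bind other transcripts, read 56.1 and 27.7 in wild-type and 132 and 153 in Pac1-/- cells. It was not tested, and its log2 difference of 1.85 was opposite to that of the tested Il4ra probe sets.

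**Figure D3:**
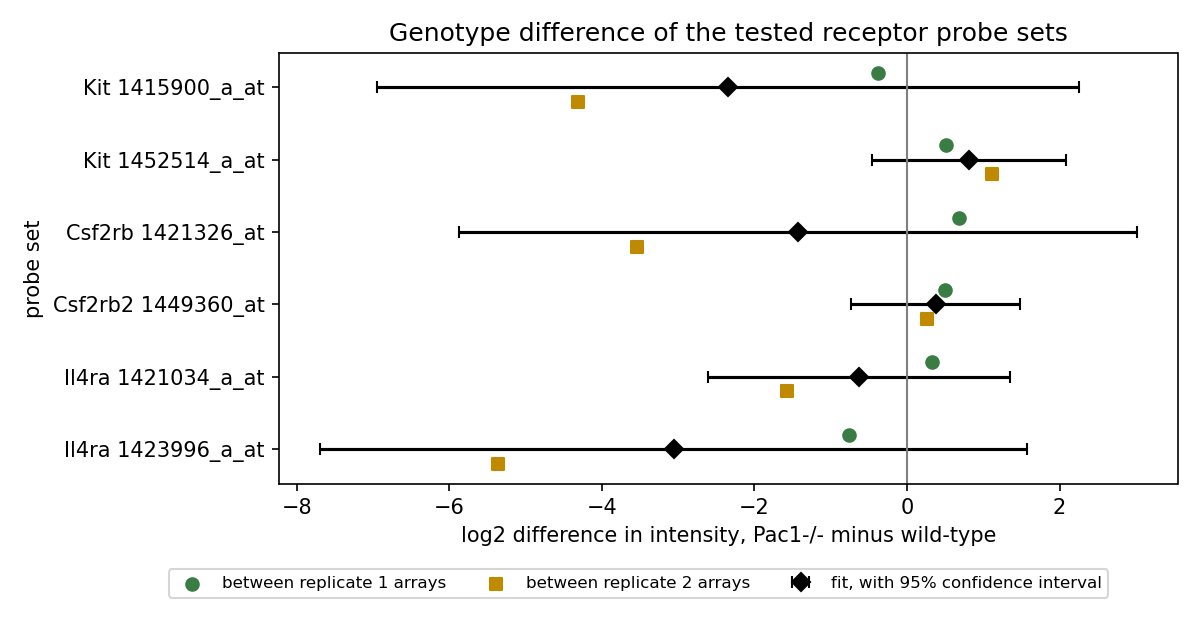
Log2 difference in intensity, Pac1-/- minus wild-type, of the 6 tested receptor probe sets: diamonds and bars give the fit with its 95% confidence interval, circles the difference within replicate 1 and squares that within replicate 2. Every interval crosses 0; the squares reach -5.36 for Il4ra 1423996_a_at and -4.31 for Kit 1415900_a_at, where the circles are at -0.76 and -0.38.

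The patterns over the 4 arrays can be described by the genes most like them, measured as the root mean square difference of log2 values centred on each gene's mean, over 4 arrays and 4997 candidate genes. For Kit 1452514_a_at they were Lamtor3, a scaffold of late endosomes (0.04), and Zwint, a kinetochore protein (0.04). For Csf2rb2 they were Pigq (0.02) and Kmt5a (0.03). For Csf2rb they were Ctsd, which encodes the lysosomal protease cathepsin D (0.18), and the ubiquitin ligase gene Ube3a (0.23). Ctsd read 6366 and 5770.0 in wild-type cells and 7295 and 555 in Pac1-/- cells, which is the same single low array as for Csf2rb. For Il4ra 1421034_a_at they were Uhrf1bp1l (0.05) and Cyb5r3 (0.06). These values describe 4 arrays and carry no test.

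Of the tested ligand genes, all but Csf2 reached the intensity minimum only through the replicate number in which they were high. Of 10 listed genes, 5 reached the intensity minimum, each gene by its brightest probe set. Kitl, which encodes stem cell factor, read 3175 and 59.6 on wild-type replicates 1 and 2 and 1787 and 34.8 on Pac1-/- replicates 1 and 2. Il3 read 556 and 8.1 in wild-type and 214 and 6.2 in Pac1-/- cells, and Il33 read 690.1 and 31.4, then 399 and 39.2. Both replicate 1 arrays were high and both replicate 2 arrays low for these 3 genes.

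Csf2, the GM-CSF gene, read 1020.2 and 6.5 in wild-type and 641 and 250.3 in Pac1-/- cells. Il4 ran the other way, at 94.4 and 236 in wild-type and 52.2 and 387 in Pac1-/- cells. Kitl, Il3, Il33 and Il4 reached the mean of 100 only through the replicate number in which they were high, so a count of the tested ligand genes that separate the numbers supports nothing. Among the 5 that were too dim, Tslp and Il13 separated the numbers, while Il2, Il5 and Il9 did not. Sparc and Cd68 ran the same way as Kitl over the arrays, and their part in the ligand values was not tested. All 5 tested ligand genes separated the replicate numbers, which by itself makes the genotypes overlap. Of the 5, 1 was higher and 4 lower in Pac1-/- cells (median log2 difference -0.24). None passed the adjusted or the unadjusted test, which 0% and 2.92% of tested genes passed. Single arrays decided that median, which came to 1.99 when wild-type replicate 1 was omitted and to -2.47 when wild-type replicate 2 was. Omitting Pac1-/- replicate 1 gave -1.91, and omitting Pac1-/- replicate 2 gave 1.44.

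**Figure D4:**
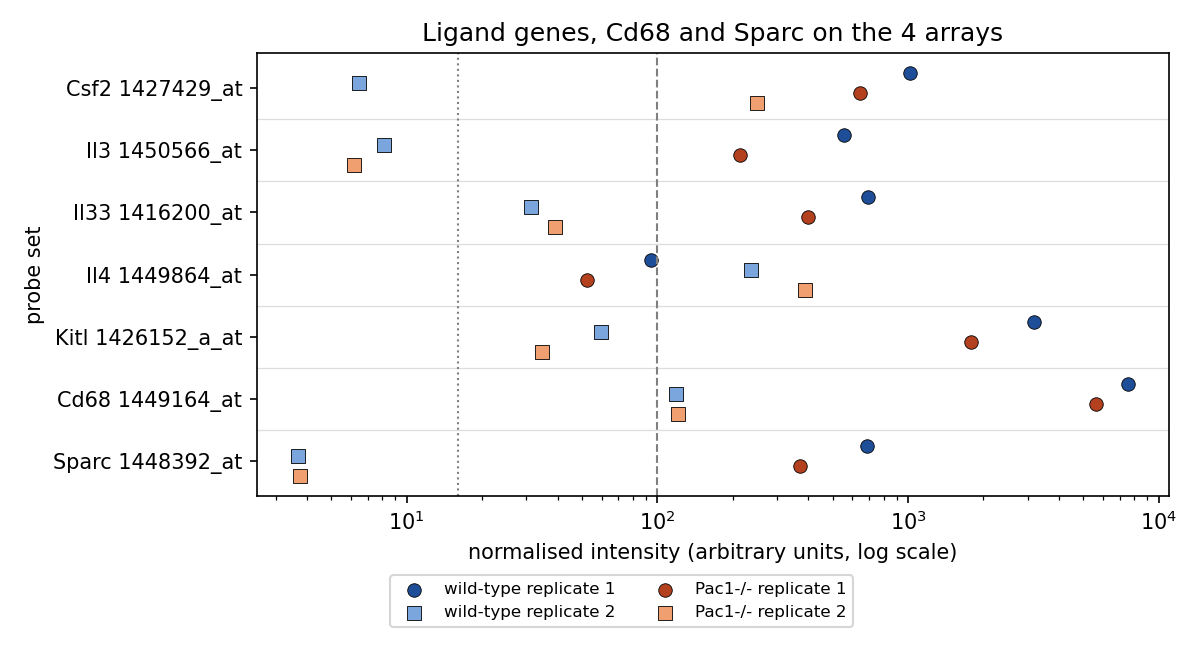
Normalised intensity (log axis) of the 5 tested ligand genes and of Cd68 and Sparc on the 4 arrays, with the dashed line at 100 and the dotted line at 16. Circles (replicate 1) lie to the right of squares (replicate 2) for all but Il4; Kitl reads 3175 and 1787 in replicate 1 and 59.6 and 34.8 in replicate 2.

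Of 32 partner chains and other cytokine receptors, 14 were tested, and 10 were higher and 4 lower in Pac1-/- cells. Their median log2 difference was 0.34, against 0.10 over all tested genes. It came to 0.63 and 0.33 when wild-type replicate 1 or 2 was omitted, and to 0.56 and 0.80 when Pac1-/- replicate 1 or 2 was. As deposited it was 0.18, and with each array centred on its median 0.81, where the median of all tested probe sets was 0.69. None passed the adjusted or the unadjusted test. In 6 of the 14 both Pac1-/- arrays were above both wild-type arrays, against 26.1% of tested genes, and in 0 both were below, against 11.5%. The lowest p belonged to the TNF receptor Tnfrsf1b (0.79 ± 0.35, SE), the IL-18 receptor chain Il18r1 (1.12 ± 0.55), the interferon-gamma receptor chain Ifngr1 (0.79 ± 0.39) and the TGF-beta receptor Tgfbr2 (0.81 ± 0.45), each with a limma adjusted p of 0.866. Tnfrsf1b read 140.0 and 147 in wild-type and 236 and 262 in Pac1-/- cells, without overlap. Il5ra, which pairs with the common beta chain, read 28.5 or less on each array, and Il13ra1, which pairs with Il4ra, 22.3 or less.

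Of these 14, 6 separated the replicate numbers, against 40.6% of the 4998 tested genes, 4 with replicate 2 higher and 2 with it lower. A pair of them was singled out after their values were seen. Each of the pair reached the mean of 100 only through the replicate number in which it was high. The same holds for Il18rap and Ifnar2, so this count is not independent of the minimum and supports nothing. Flt3, the receptor tyrosine kinase of early progenitors that resembles Kit, read 1946 and 36.0 in wild-type and 1462 and 58.6 in Pac1-/- cells. Il2ra, the IL-2 receptor alpha chain, ran the other way, at 15.5 and 250.5 in wild-type and 3.0 and 419 in Pac1-/- cells.

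Of 30 genes that signal below these receptors, 18 were tested, 10 higher and 8 lower in Pac1-/- cells (median 0.03 on the log2 scale). This median was 0.07 and 0.18 when wild-type replicate 1 or 2 was omitted, and 0.02 and 0.36 when Pac1-/- replicate 1 or 2 was. With each array centred on its median it was 0.67, against 0.69 for all tested probe sets. None passed the adjusted or the unadjusted test. The beta chain kinase gene Jak2 read 1316 and 1061 in wild-type and 2099 and 1628 in Pac1-/- cells, 0.65 ± 0.38 log2 units apart (SE; limma adjusted p = 0.866), without overlap and with 0.67 and 0.62 within the replicate numbers. The adaptor gene Sh2b3, whose product Lnk restrains Kit and Jak2 signalling, read 247 and 257 in wild-type and 183 and 28.0 in Pac1-/- cells (-1.82 ± 1.05), with Pac1-/- replicate 2 far below the rest. Stat5b (0.57 ± 0.44) and the phosphatase gene Ptpn11 (0.58 ± 0.44) completed the 4 with the lowest p, at the same adjusted p. Of the 18, 6 separated the replicate numbers, 4 with replicate 2 lower, against 40.6% and 17.7% of tested genes. Stat5a, 1 of the 4 and named after its values were seen, read 1432 and 71.5 in wild-type and 991 and 10.7 in Pac1-/- cells. Stat5a, Stat3 and Map3k7 reached the mean of 100 only through replicate 1, so this count too is not independent of the minimum and supports nothing.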

How the data were processed

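Gene expression in 4 cultures was read on 1 Affymetrix 430A array each. Amplification for small samples started from 500 to 1000 ng of RNA with a poly(T) primer, per the labels' protocols. The authors deposited linear MAS5 intensity values (per the submitters' processing notes), 1 per probe set; 2% trimmed means of 150.06 to 150.08 show common scaling. The series' design text describes RMA values, not used here, and the test (eBayes of Limma), adjustment and intensity minimum of 100 followed here.

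Of 22690 probe sets, 64 controls were left out; of the others 20380 have 1 gene symbol, 691 several and 1555 none. Intensities were quantile normalised, values below 16 set to 16 and log2 taken; 7770 probe sets with a mean of at least 100 were fitted with limma 3.58.1 (R 4.3.3; a genotype term alone, two-sided tests, Benjamini-Hochberg over all tested, 2 residual and 1.7 prior degrees of freedom). Replicates are cultures; p-values use the spread between 2 per genotype, which includes the replicate number. The steps were tested on simulated data without a difference between replicate numbers, so that test does not show what the fit could find here. Figures: matplotlib 3.10.9, Python 3.11.15.

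The members and lists were chosen with earlier results of these data known. Named are all receptor probe sets, Dusp2, every tested ligand, the 4 tested genes per list with the lowest p and the 2 genes most like each receptor gene's brightest probe set; other genes were chosen after their values were seen. Alternatives: values as deposited, median centring, no intensity minimum or 200, floor of 64, intensity trend, replicate block and each array left out.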

Additional observations from a re-analysis of the deposited data

How the results depend on the processing

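With 2 cultures per genotype, 0 of the tested receptor probe sets and 0 probe sets overall passed limma's adjusted p under any alternative; on all 4 arrays 263 of all tested probe sets passed the unadjusted p. Changing the intensity minimum, the intensity trend or the replicate block leaves every log2 difference as it was, so no value could turn there. With those values included, 62 of 65 values of the 6 tested receptor probe sets kept their direction over the alternatives. The 3 that turned were Il4ra 1421034_a_at with median centring (0.0069) and without Pac1-/- replicate 2 (0.18), and Csf2rb without Pac1-/- replicate 2 (0.63). With 1 array left out, Il4ra 1421034_a_at ranged from -1.43 to 0.18 and Csf2rb from -3.49 to 0.63. Kit 1452514_a_at ranged from 0.43 to 1.60, Csf2rb2 from 0.15 to 1.12, Kit 1415900_a_at from -4.47 to -0.21 and Il4ra 1423996_a_at from -5.21 to -0.91. With median centring the typical tested probe set differed by 0.69 (the median), and Kit 1452514_a_at (1.60) and Csf2rb2 (1.12) stayed above it.

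The count of receptor probe sets past the unadjusted p was 0 in the main fit. Where all 4 arrays were kept, it changed to 1 with median centring, 2 with no intensity minimum and 2 with the replicate block. It also rose above 0 in some fits with an array left out, where 1 genotype rests on a single array. Median centring and no minimum brought 7 and 10 receptor probe sets into the test. The ones that passed there were dim probe sets outside the 6, none of which passed under these 2 settings. The count of list genes, also 0, was 2 with no minimum, 3 with the block and 0 to 1 with an array left out. Over all probe sets the count was 1762 with no minimum, 110.0 with a minimum of 200, 899 with the block and 79 to 408 with an array left out. The receptor probe sets that separate the replicate numbers, 0 of 6, were 1 with median centring (Kit 1415900_a_at) and 1 with no minimum (Csf2ra 1420703_at, which was not tested otherwise). For other changes the cause was not tested. Fits on 3 arrays take their spread from the genotype that still has 2, which the single array is assumed to share, and part of the difference between replicate numbers enters them.

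The share of higher among unadjusted calls was 66.5%, against 54.2% as deposited, 92.7% with median centring, 36.5% with the block and 11.8% to 53% with an array left out, the lowest without Pac1-/- replicate 1. Same-numbered arrays deviated together over probe sets (r = 0.751), but nothing in the labels says what a number shares; the adjusted p of the 2 receptor probe sets past the unadjusted p with the block, Il4ra 1423996_a_at and Kit 1415900_a_at, was 0.377 and 0.392.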

Other observations

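Kit was 1 of 32 genes, 2.18% of the 1468 with at least 2 tested probe sets, in which wild-type replicate 2 was at least 4-fold above every other array by 1 probe set and the lowest array by another. Among the others were the chaperone genes Hsp90aa1 and Hsp90b1, the actin-binding protein gene Cfl1, the translation factor gene Eif4a1 and the TGF-beta receptor gene Tgfbr1. This count was defined after the Kit values were seen.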
